A study of Mus musculus with 12 samples.

Results

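The circadian clock of mammalian cells is a feedback loop of transcription. The activators CLOCK and BMAL1 (gene Arntl) bind E-box sequences and switch on the genes of their own repressors, the period proteins (PER) and cryptochromes (CRY), which return to the nucleus, block the activators and are then marked by kinases and degraded. The hippocampus, a region needed for memory, carries this loop in its own cells, outside the master clock of the suprachiasmatic nucleus. Described here are 10 genes of the negative limb, listed by name for their place in the loop: the period genes Per1, Per2 and Per3, the cryptochrome genes Cry1 and Cry2, Ciart (also called Chrono), the basic helix-loop-helix repressor genes Bhlhe40 and Bhlhe41, and the casein kinase genes Csnk1d and Csnk1e. All 10 were among the 21878 genes of each table, and all 10 passed the filter on low values with 12689 genes in all.

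RNA came from mouse hippocampus (labelled as brain), from animals killed under deep anaesthesia at 9 in the morning or 9 in the evening. There were 4 groups of 3 libraries. Day WT and Night WT were control mice, and Day DKO and Night DKO were mice with a conditional double knockout that includes Psen2, which encodes a catalytic subunit of gamma-secretase. The labels pair the words Day and Night with no hour, so Day is read here as the morning. The sources used here do not give the driver of the knockout, the age and sex of the mice, the light schedule or the number of mice behind a library, so a p-value measures only the spread between these libraries. The design asks whether these genes differ by time of day, by genotype, and in their time difference between genotypes.

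The unit is read as FPKM from the size of the values, since no header names it. FPKM is a count of fragments divided by transcript length and library size. On that reading levels can be set beside each other between genes, and the number of reads is unknown. Psen2 checked the labels, with 0.275 to 0.594 FPKM in the 6 DKO libraries and 1.47 to 3.63 in the 6 WT libraries. All 6 markers of excitatory hippocampal neurons had a mean of at least 1 FPKM, and 2 of 5 suprachiasmatic and hypothalamic genes did. Of those, Vip, which interneurons of the hippocampus also express, stood at 3.90 to 8.78 FPKM and Avp at 0.289 to 4.05, while Six6, Lhx1 and Oxt were at or near 0. A pair of libraries stood apart. Night WT replicate 1 had Ddx3y, a Y-linked gene, at 0.0225 FPKM against 6.83 to 8.56 in the 11 others. The Y-linked genes Eif2s3y, Kdm5d and Uty were at 0.00609, 0 and 0.00224 FPKM there and at 1.76 or more in the 11 others. By these genes that library reads as female and the others as male, while the labels give no sex. Day DKO replicate 2 had Ttr, the main transcript of choroid plexus, at 55.3 FPKM against 786 to 3032 elsewhere. The summed level of 10 choroid plexus genes was 1100 to 2734 FPKM in Day WT, 62.0 to 1771 in Day DKO, 1342 to 3109 in Night WT and 1883 to 2980 in Night DKO. Summed oligodendrocyte markers were 267 to 286, 206 to 259, 297 to 349 and 239 to 305 FPKM in the same order. Summed blood genes were 105 to 140, 86.7 to 101, 156 to 264 and 105 to 146 FPKM, endothelial and mural genes 33.0 to 43.0, 27.3 to 30.1, 24.0 to 29.9 and 21.1 to 28.7 FPKM, and astrocyte genes 178 to 187, 213 to 230, 175 to 189 and 182 to 252 FPKM. Microglial genes summed to 26.4 to 30.2, 32.1 to 35.2, 28.2 to 32.3 and 31.2 to 36.2 FPKM. By day, oligodendrocyte, blood, and endothelial and mural sums were lower in every DKO library than in every WT library. Astrocyte and microglial sums were higher in every DKO library by day. The share of all genes without overlap by genotype was not computed. The part of these tissue differences in the results was not tested beyond a fit with choroid plexus as a covariate. In tissue RNA, fewer cells of a type and less RNA per cell cannot be told apart.

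The members lie on 8 chromosomes of GRCm38.p6. Per1 (gene ID 18626) lies at chr11:69095108-69109965, plus strand, Per2 (18627) at chr1:91415977-91459351, minus strand, and Per3 (18628) at chr4:150997018-151044707, minus strand. Cry1 (12952) lies at chr10:85131700-85185054 and Cry2 (12953) at chr2:92403646-92434085, both on the minus strand. Ciart (229599) is the shortest locus, at chr3:95878500-95882257, minus strand. Bhlhe40 (20893, plus strand) at chr6:108660629-108666925 and Bhlhe41 (79362, minus strand) at chr6:145858243-145865420 share a chromosome, and Csnk1d (104318) at chr11:120957709-120991350 and Csnk1e (27373) at chr15:79417852-79455579 are on the minus strand. The deposited annotation placed 9 of the 10 in its circadian rhythm pathway, which held 30 genes, with Ciart the exception. Per3 lies inside the annotated span of Camta1 on the same strand and overlaps Uts2 on the other, and Csnk1d overlaps the 3′ part of Slc16a3, so reads of such stretches could be assigned to either gene. The kit marks strand, and whether counting used it is not stated.

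Promoter sequence was available for 7 of the 10 members (RefSeq, GRCm38.p6; none for Per2, Bhlhe40 and Csnk1d), as the 250 bases before each annotated start. The motifs searched, on both strands, were the E-box CACGTG, which CLOCK and BMAL1 bind, its variant the E′-box CACGTT, the D-box of the PAR bZIP factors as TTATGTAA or as TTACGTAA, and the cAMP response element TGACGTCA. No motif overlapped another in these windows. The sequences below are those of the 4 members with a window that were higher at night when both genotypes were averaged, cut to the bases outside the annotated gene, with motif matches in capitals. They are shown because Ciart, with the largest time difference, and Per3, with the largest difference between genotypes by day (which did not pass the test), carry different motifs.
Ciart: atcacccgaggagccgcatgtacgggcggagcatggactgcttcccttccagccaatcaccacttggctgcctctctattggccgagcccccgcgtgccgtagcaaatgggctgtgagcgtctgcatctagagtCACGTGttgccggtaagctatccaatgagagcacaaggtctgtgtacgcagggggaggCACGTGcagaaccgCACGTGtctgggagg
Per3: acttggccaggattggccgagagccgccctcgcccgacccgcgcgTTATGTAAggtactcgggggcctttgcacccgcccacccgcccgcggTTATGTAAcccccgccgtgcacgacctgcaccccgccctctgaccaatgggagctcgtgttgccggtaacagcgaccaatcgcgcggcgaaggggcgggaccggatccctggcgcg
Cry1: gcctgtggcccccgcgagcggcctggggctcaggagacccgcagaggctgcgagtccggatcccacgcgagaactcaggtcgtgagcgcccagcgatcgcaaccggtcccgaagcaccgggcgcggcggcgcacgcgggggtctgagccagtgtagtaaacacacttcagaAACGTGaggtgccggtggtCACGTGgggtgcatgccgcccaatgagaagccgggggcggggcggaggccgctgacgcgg
Bhlhe41: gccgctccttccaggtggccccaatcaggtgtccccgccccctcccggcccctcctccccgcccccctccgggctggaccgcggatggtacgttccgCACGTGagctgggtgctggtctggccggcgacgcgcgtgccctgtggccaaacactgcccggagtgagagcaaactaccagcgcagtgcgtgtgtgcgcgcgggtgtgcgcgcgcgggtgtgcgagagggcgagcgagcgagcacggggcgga

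These lie at chr3:95882258-95882478, chr4:151044708-151044915, chr10:85185055-85185304 and chr6:145865421-145865670, all on the minus strand and written 5′ to 3′. Ciart held 3 E-boxes, beginning 116, 58 and 44 bases before its start. An E-box was in 6.02% of the 32851 windows of the table, and 3 or more were in 20 of them (0.0609%). Per3 held no E-box and had the D-box TTATGTAA beginning 205 and 158 bases before its start. That D-box was in 0.819% of all windows, and 6 windows (0.0183%) had more than 1. Cry1 held an E-box at 60 and an E′-box at 79 bases before its start, Bhlhe41 an E-box at 153, Cry2 an E′-box at 166 and the more upstream of the 2 starts of Per1 an E-box at 166. The E′-box was in 3.85% of windows. The other start of Per1 and the 4 starts of Csnk1e held none of the motifs, and no member held TGACGTCA (in 1.55% of windows) or TTACGTAA (in 0.113%). These are matches of letters in windows of 250 bases and show no binding. A link between the motifs and the differences by time or genotype was not tested.

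**Figure D1:**
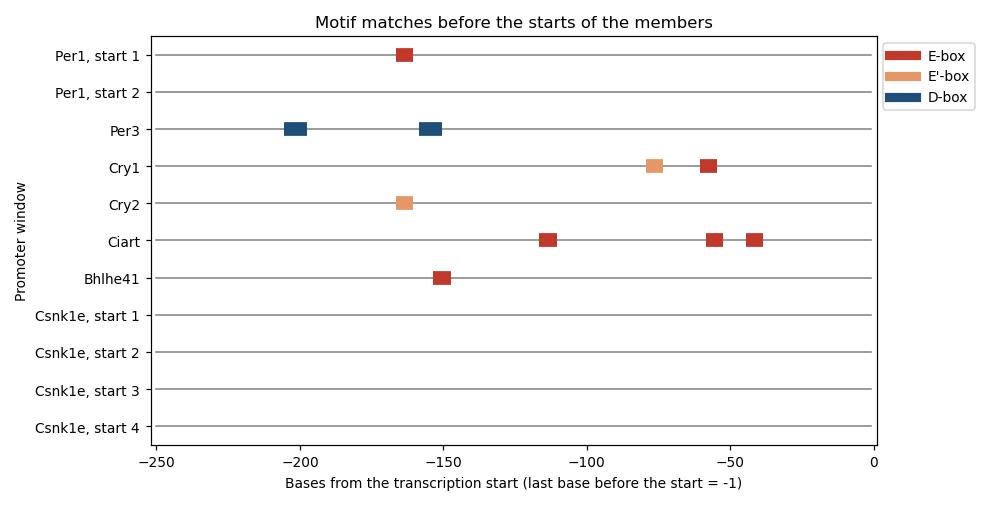
Motif matches in the 250 bases before each annotated start of the 7 members with promoter sequence; the x axis is the distance from the start in bases, each grey line is a window and coloured blocks are matches. Ciart carries 3 E-boxes within 116 bases of its start, and Per3 carries 2 D-boxes.

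By median over the 12 libraries, the levels ran from Csnk1d (18.5 FPKM), Cry2 (17.5) and Bhlhe40 (16.0) through Csnk1e (5.43), Per1 (4.26), Per2 (3.56), Cry1 (3.20), Bhlhe41 (2.80) and Per3 (2.39) to Ciart (1.54). Neighbours were clearly ordered at 3 steps: Cry2 was above Bhlhe40, Bhlhe40 above Csnk1e and Bhlhe41 above Per3 in all 12 libraries. At the other steps libraries disagreed. Csnk1d was above Cry2 in 8 of 12 and Per2 above Cry1 in 8 of 12. Ciart, the lowest gene, passed Per3 in 3 of 12 libraries.

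**Figure D2:**
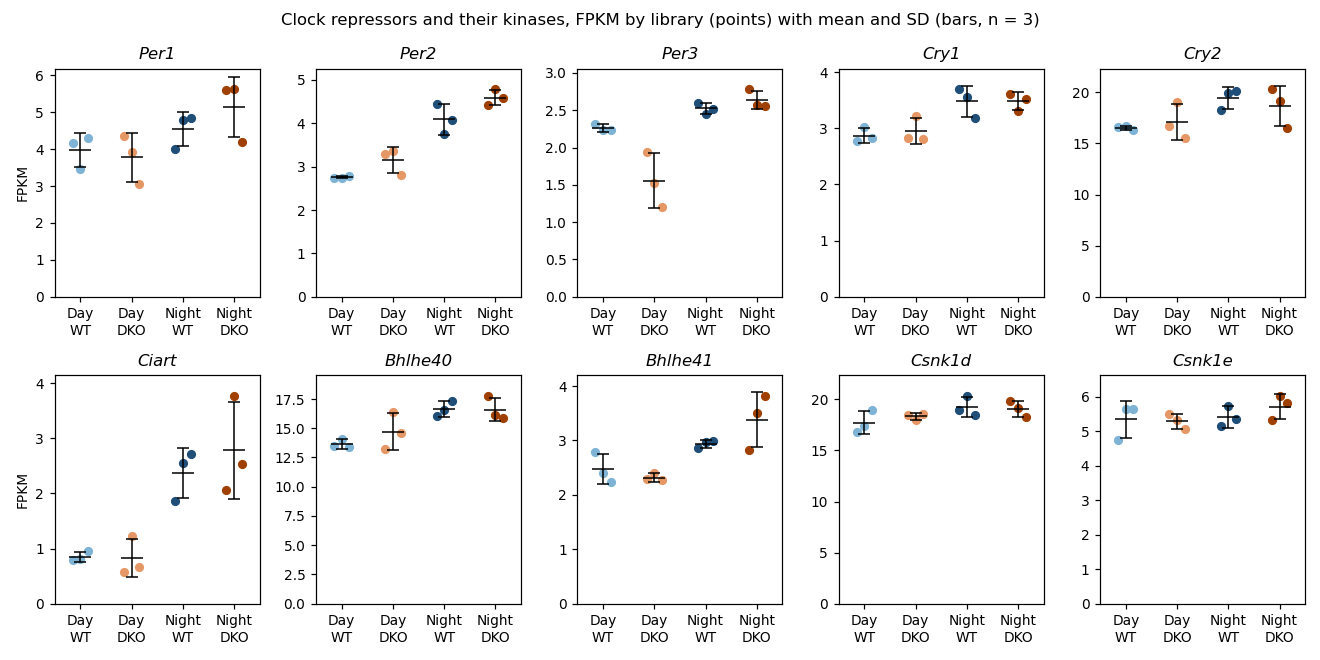
FPKM of each member in the 12 libraries, with a point for each library and bars for the group mean and SD (n = 3); every y axis starts at 0. Per2, Per3, Ciart and Bhlhe41 had all 6 night libraries above all 6 day libraries, as did 2.84% of all genes. Per3 was lowest in the 3 Day DKO libraries, and the share of all genes with that pattern was not computed.

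Averaged over both genotypes, 6 of the 10 members were higher at night than by day, and none was lower. They were Ciart, Per2, Per3, Bhlhe41, Bhlhe40 and Cry1. Over all genes tested, 5.19% were called higher at night in this comparison (limma, Benjamini-Hochberg adjusted p under 0.05). The median difference in log2(FPKM + 1) was 0.24 over the 10 members and 0.05 over all genes. Every night library was above every day library, genotypes pooled, for 4 of the 10 (Per2, Per3, Ciart and Bhlhe41), against 2.84% of all genes. These 4 were called in all 22 alternative settings run, whereas Cry1 lost its call in 11 and Bhlhe40 in 10 of them. Without Night WT replicate 1 these same 4 members were called, and without Day DKO replicate 2 there were 7, with Cry2 added. Calls over all genes were 659 higher and 111 lower at night, but 206 and 284 with median-of-ratios scaling and 232 and 343 with quantile normalization. The averaged comparison uses the same libraries as the comparisons within each genotype, so it adds no separate evidence to them.

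Within WT, 2 members were called higher at night, Per2 and Ciart, against 1.51% of all genes. Within DKO, 3 were called, Per2, Per3 and Ciart, against 0.181% of all genes. No member was called lower in either. Without Night WT replicate 1 no member was called in WT, and without Day DKO replicate 2 Per2 and Ciart were called in DKO. Over all genes, 192 were called higher and 20 lower in WT, but 23 and 34 with median-of-ratios scaling and 25 and 46 with quantile normalization. In DKO, 23 were called higher and 15 lower, and 24 and 41 or 24 and 39 with these scalings. The median difference of the 10 members was 0.20 in WT and 0.27 in DKO, beside 0.07 and 0.02 over all genes. Night libraries were all above day libraries for 7 members in WT (all but Per1 and both kinases), where 24.3% of all genes did the same, and for 5 members in DKO (Per2, Per3, Cry1, Ciart and Bhlhe41), against 12.9% of all genes. Most genes leaned the same way in WT: 72.1% of all genes had a positive difference in WT, and dividing each library by its median ratio took the WT median of all genes to 0.01 and that of the members to 0.13.

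**Figure D3:**
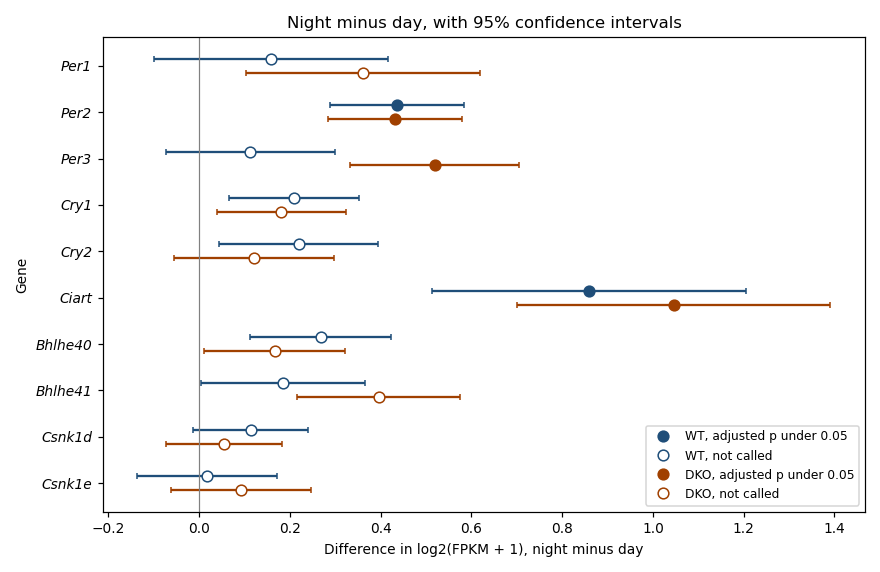
Night minus day difference in log2(FPKM + 1) for each member in WT and DKO, with 95% confidence intervals; filled points passed the adjusted threshold. All 20 points lie above 0, Ciart lies farthest to the right in both genotypes, and the intervals of WT and DKO are farthest apart for Per3.

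Per2, a core subunit of the repressor complex, changed by a similar amount in both genotypes. Its Day WT libraries stood at 2.74, 2.74 and 2.78 FPKM and its Night WT libraries at 4.45, 3.75 and 4.07. In DKO they stood at 3.28, 3.37 and 2.81 by day and 4.42, 4.78 and 4.58 at night. Night was above day in every pair of libraries in both genotypes. The group means were 2.75 ± 0.0215 and 4.09 ± 0.350 FPKM in WT and 3.15 ± 0.300 and 4.59 ± 0.182 in DKO (SD, n = 3), 1.48-fold and 1.46-fold higher at night. The log2 difference was 0.44 in WT (SE 0.07, limma adjusted p = 0.0216) and 0.43 in DKO (SE 0.07, adjusted p = 0.0179). With both genotypes it was 0.43 (adjusted p = 0.000866), the tenth smallest p of all genes tested. The 95% interval of the difference between genotypes in this rise ran from -0.21 to 0.20.

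The calls of Per2 within a genotype rested on few libraries. In WT the adjusted p was 0.0766 without Day WT replicate 1 and 0.0792, 0.0536 and 0.0867 without Night WT replicates 1, 2 and 3. In DKO it was 0.0577 when the third Day DKO library was left out, and 0.0914 and 0.0703 when the second and the third Night DKO library were. With the choroid plexus covariate it was 0.0792 in DKO. Fitting only the 2 groups compared gave 0.0535 in WT and 0.0673 in DKO, and leaving out the filter on low values gave 0.0523 in DKO. The log2 difference stayed between 0.37 and 0.55 over the WT alternatives and between 0.37 and 0.53 over the DKO alternatives.

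Per3, the period gene least needed for the core rhythm in mice, was lowest in the Day DKO libraries. Its 3 values there were 1.94, 1.53 and 1.20 FPKM, each below every other library of the series. In Day WT they were 2.32, 2.23 and 2.23, in Night WT 2.60, 2.45 and 2.52, and in Night DKO 2.78, 2.58 and 2.56. The share of all genes that were lowest in the 3 Day DKO libraries was not computed. Night and day did not overlap in either genotype, though the WT gap was narrow. The means rose from 1.56 ± 0.372 to 2.64 ± 0.122 FPKM in DKO (1.70-fold, log2 difference 0.52, SE 0.09, limma adjusted p = 0.0219) and stood at 2.26 ± 0.0491 and 2.52 ± 0.0737 in WT (1.12-fold, 0.11, SE 0.09, adjusted p = 0.458).

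Being called in DKO and not in WT does not show that Per3 differed between genotypes in its time difference. The interaction was 0.41 (95% interval 0.14 to 0.67, unadjusted p = 0.00545), and its adjusted p was 0.505. By day, Per3 was 0.36 lower in DKO on the log2 scale (95% interval -0.55 to -0.17, adjusted p = 0.0662), which did not pass. Without Day DKO replicate 1, whose Per3 was nearest to WT, that difference was -0.47 (adjusted p = 0.0191). At night it was 0.05 (adjusted p = 0.928). The interaction, the day difference and the DKO time difference all use the same 3 Day DKO libraries. The DKO time call was lost without Day DKO replicate 2 (adjusted p = 0.0818) or 3 (0.0540) and without Night DKO replicate 1 (0.0698), 2 (0.0830) or 3 (0.0741), with differences of 0.42 to 0.53, and with the choroid plexus covariate (0.54, adjusted p = 0.120). It was also lost with no filter on low values (adjusted p = 0.0745) and in a fit of the DKO groups alone (0.0978).

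Per1, the period gene that also responds fast to neuronal activity and glucocorticoids, had overlapping groups. It stood at 4.16, 3.45 and 4.31 FPKM in Day WT and 4.005, 4.78 and 4.85 in Night WT. In DKO it stood at 4.37, 3.92 and 3.06 by day and 5.61, 5.62 and 4.21 at night. The highest values were 2 of the 3 Night DKO libraries, and Night DKO replicate 3 lay within the day range. The differences of 0.16 in WT (adjusted p = 0.454), 0.36 in DKO (adjusted p = 0.200) and 0.26 averaged (adjusted p = 0.0784) did not pass in the limma fit. Its averaged difference passed in none of the 22 alternatives.

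The proportions of the period transcripts are given as levels divided within each library, with no test. Per2 was 1.22 ± 0.0321 times the level of Per3 in Day WT and 2.08 ± 0.345 times in Day DKO (SD, n = 3), with ranges of 1.18 to 1.24 and 1.69 to 2.35. At night the ratio was 1.62 ± 0.0911 in WT and 1.74 ± 0.139 in DKO, ranges that overlap. Per1 was 1.44 ± 0.159 times Per2 in Day WT and between 1.12 and 1.20 times on average in the other 3 groups, with overlapping ranges (1.26 to 1.55 in Day WT, 1.09 to 1.33 in Day DKO, 0.901 to 1.28 in Night WT and 0.919 to 1.27 in Night DKO).

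The cryptochromes are the main direct inhibitors of CLOCK and BMAL1. Cry1 stood at 2.77, 3.02 and 2.83 FPKM in Day WT and 3.69, 3.56 and 3.18 in Night WT. In DKO it stood at 2.82, 3.22 and 2.81 by day and 3.61, 3.30 and 3.53 at night. Night was above day within each genotype, by 1.21-fold of the means in WT and 1.18-fold in DKO. Neither difference passed alone (0.21, adjusted p = 0.104, and 0.18, adjusted p = 0.233, limma). Averaged, Cry1 rose by 0.20 (adjusted p = 0.0322), a call lost with both other scalings, with the choroid plexus covariate and without 8 of the 12 libraries (Day WT 1 and 3, Day DKO 1 and 3, Night DKO 1 and 3, Night WT 1 and 2), at adjusted p of 0.0535 to 0.0780.

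Cry2 was more abundant, at 5.38 to 5.78 times the level of Cry1 on average in the 4 groups. It stood at 16.3 to 16.7 FPKM in Day WT and 18.2 to 20.1 in Night WT, which did not overlap, and at 16.7, 19.0 and 15.6 in Day DKO and 20.3, 19.2 and 16.6 in Night DKO, which did. Its difference was 0.22 in WT (adjusted p = 0.143), 0.12 in DKO (adjusted p = 0.527) and 0.17 averaged (adjusted p = 0.0871), so Cry2 was not called in the limma fit. Without Day DKO replicate 2, the library with little choroid plexus transcript and the highest Cry2 of its group, the averaged value was 0.21 (adjusted p = 0.0462).

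Ciart, a repressor that binds BMAL1 and is itself a strong E-box target, had the largest fold of the 10. It stood at 0.788, 0.807 and 0.949 FPKM in Day WT and 1.86, 2.55 and 2.71 in Night WT. In DKO it stood at 0.577, 1.22 and 0.673 by day and 2.05, 3.76 and 2.54 at night. Day and night were apart in both genotypes, and the spread within groups was wider in DKO. The means were 0.848 ± 0.0878 and 2.37 ± 0.452 FPKM in WT, 2.80-fold, and 0.823 ± 0.347 and 2.79 ± 0.880 in DKO, 3.38-fold. The log2(FPKM + 1) scale shrinks such low values. On it the rise was 0.86 in WT (SE 0.16, limma adjusted p = 0.0339) and 1.05 in DKO (SE 0.16, adjusted p = 0.0150), and with 0.1 added in place of 1 it was 1.37 and 1.66. Averaged, Ciart rose by 0.95 (adjusted p = 0.00125).

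The genotype-specific calls of Ciart were close to the threshold. In WT its adjusted p was 0.120 and 0.0663 without Day WT replicates 1 and 2, 0.0609, 0.111 and 0.0945 without Night WT replicates 1, 2 and 3, and 0.0575 and 0.0510 with median-of-ratios scaling and quantile normalization. In DKO it was 0.0548 and 0.0577 without Day DKO replicates 1 and 3 and 0.0508 without Night DKO replicate 3. With no filter on low values it was 0.0603 in WT and 0.0742 in DKO, and in a fit of the DKO groups alone it was 0.0646, so no member was called in DKO under either of these settings. With the choroid plexus covariate the DKO rise was 1.32 (adjusted p = 0.00763), and Ciart was then the single member called in DKO. The interaction was 0.19 (95% interval -0.30 to 0.67), too wide to set the genotypes apart or to show that they are alike.

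Bhlhe40 and Bhlhe41 (DEC1 and DEC2) compete with CLOCK and BMAL1 for E-boxes. Bhlhe41 stood at 2.78, 2.41 and 2.23 FPKM in Day WT, 2.86, 2.97 and 2.995 in Night WT, 2.29, 2.41 and 2.27 in Day DKO and 2.83, 3.51 and 3.81 in Night DKO. All night libraries were above all day libraries, by as little as 2.83 against 2.78. The difference was 0.18 in WT (adjusted p = 0.214), 0.40 in DKO (adjusted p = 0.0642) and 0.29 averaged, where it passed (adjusted p = 0.0192, limma). Without Night DKO replicate 1, the library with the lowest Bhlhe41 of its group, the DKO difference was 0.49 (adjusted p = 0.0256). The interaction of 0.21 had an interval from -0.04 to 0.47.

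Bhlhe40 stood at 13.4, 14.1 and 13.4 FPKM in Day WT and 16.0, 16.6 and 17.4 in Night WT, apart from each other. In Day DKO it stood at 13.2, 16.4 and 14.6 and in Night DKO at 17.7, 16.1 and 15.9, which overlapped through Day DKO replicate 2. The difference was 0.27 in WT (adjusted p = 0.0712) and 0.17 in DKO (adjusted p = 0.295), and Bhlhe40 rose by 0.22 averaged (adjusted p = 0.0301, limma). That call was lost with median-of-ratios scaling (adjusted p = 0.0756), quantile normalization (0.0518) and the choroid plexus covariate (0.0556). It was also lost without Day WT 1 or 3, Day DKO 1, Night DKO 1 or any Night WT library, at adjusted p of 0.0507 to 0.0705. Bhlhe40 was 5.01 to 6.34 times the level of Bhlhe41 on average in the 4 groups.

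The kinases CK1 delta and epsilon, which phosphorylate the PER proteins and set the speed of the loop, showed the smallest time differences averaged over genotypes and in DKO. Csnk1d stood at 16.8 to 19.0 FPKM in Day WT, 18.5 to 20.3 in Night WT, 18.0 to 18.5 in Day DKO and 18.3 to 19.8 in Night DKO. Csnk1e stood at 4.74 to 5.66, 5.14 to 5.75, 5.06 to 5.49 and 5.32 to 6.02 in the same order. Day and night overlapped for both genes in both genotypes. Averaged, Csnk1d differed by 0.08 (95% interval -0.01 to 0.17, adjusted p = 0.222) and Csnk1e by 0.06 (95% interval -0.05 to 0.16, adjusted p = 0.513) in the limma fit. The WT difference of Csnk1e, 0.02, turned to -0.056 and -0.061 with median-of-ratios scaling and quantile normalization. Csnk1d was 3.33 to 3.56 times the level of Csnk1e on average in the 4 groups.

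Between genotypes, no member was called by day (1.18% of all genes were), at night (0.0236%) or with both times averaged (1.88%). The day calls over all genes were 101 higher and 49 lower in DKO, but 66 and 65 with median-of-ratios scaling and 51 and 47 with quantile normalization. At an unadjusted p under 0.05 in the limma fit there was 1 member by day, Per3, none at night and 2 averaged, Per2 and Per3. Of all 12689 genes tested, 2161 by day, 1165 at night and 2055 averaged reached the same level, so these member counts do not set the members apart. Per2 was 0.14 higher in DKO by day (95% interval -0.0046 to 0.29, adjusted p = 0.308), 0.14 higher at night (-0.01 to 0.29, adjusted p = 0.575) and 0.14 higher averaged (0.04 to 0.25, adjusted p = 0.164). Every Day DKO library was above every Day WT library for Per2, while at night Night WT replicate 1 (4.45) overlapped Night DKO. The share of all genes that did the same by day was not computed, and 62.8% of all genes had a positive difference by day. Per3 was 0.16 lower in DKO averaged (adjusted p = 0.213), and 0.21 lower without Day DKO replicate 1 (adjusted p = 0.0489). The widest intervals were those of Ciart, from -0.38 to 0.31 by day and -0.20 to 0.50 at night, and the narrowest those of Csnk1d, from -0.08 to 0.17 and -0.14 to 0.12. The test of the interaction called 0% of all genes and no member. Its smallest adjusted p over all genes was 0.396, with 1099 genes and 1 member (Per3) at an unadjusted p under 0.05.

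**Figure D4:**
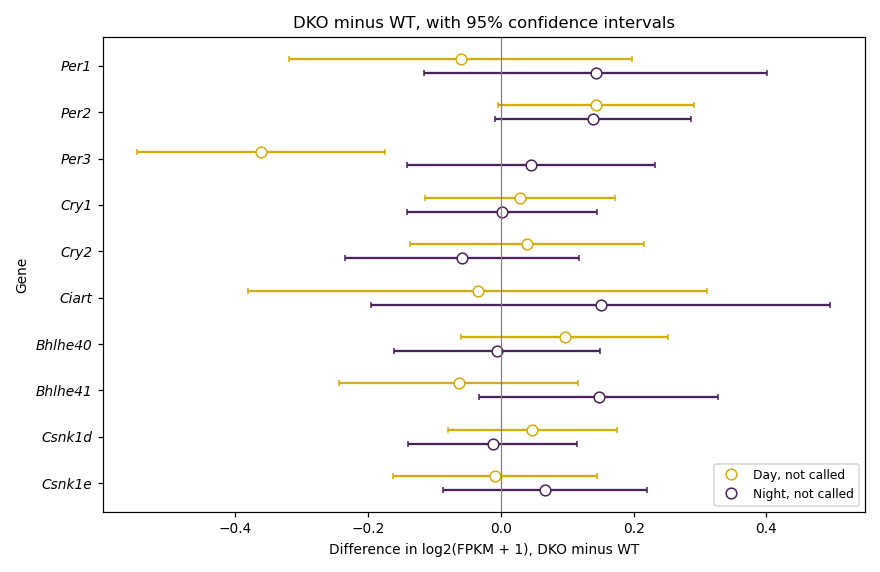
DKO minus WT difference in log2(FPKM + 1) for each member by day and at night, with 95% confidence intervals. No point passed the adjusted threshold, and Per3 by day, at -0.36, is the one whose interval excludes 0.

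The other parts of the clock were read from lists of genes, with the libraries shared by all genes. Of 8 tested activators and nuclear receptors of the loop, 2 rose and 1 fell at night averaged over genotypes. The repressors of Arntl, Nr1d1 and Nr1d2 (REV-ERB alpha and beta), rose by 0.64 and 0.72, and Arntl fell by 0.51 (limma adjusted p = 0.0027, 0.000141 and 0.000141). Arntl stood at 2.19 to 2.32 FPKM in Day WT, 2.89 to 3.41 in Day DKO, 1.59 to 1.69 in Night WT and 1.45 to 1.68 in Night DKO. It was higher in DKO by day (0.36, adjusted p = 0.0232), the single gene of this list called between genotypes. Per2 was thus 1.23 ± 0.0429 times the level of Arntl in Day WT and 0.999 ± 0.159 times in Day DKO, and 2.49 ± 0.293 and 2.99 ± 0.332 times at night.

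Of 4 listed genes for factors that bind D-boxes (the PAR bZIP genes Dbp, Hlf and Tef and the repressor gene Nfil3), 3 rose and none fell averaged over genotypes. Dbp rose by 1.42 (limma adjusted p = 8.91e-05), Hlf by 0.19 (0.0301) and Tef by 0.18 (0.0452). In Day DKO, Dbp stood at 4.09, 7.12 and 4.001 FPKM where Per3 stood at 1.94, 1.53 and 1.20, and in Day WT at 8.21, 9.68 and 7.61 where Per3 stood at 2.32, 2.23 and 2.23. Both genes were lower in every Day DKO library than in every Day WT library, and the share of all genes that did so was not computed. The Day DKO library with the highest Dbp was not the one with the highest Per3. A link between the genes was not tested. Dbp was not called by genotype by day (-0.68, adjusted p = 0.0639).

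With night against day averaged over genotypes, 5.19% of all genes were called higher, the share against which the counts of these lists stand. The calls of listed genes were not followed through the alternative settings. Over all genes, 659 higher and 111 lower became 206 and 284 with median-of-ratios scaling. Of 13 tested enzymes that modify or degrade PER and CRY, 1 rose and none fell at night averaged over genotypes. It was the deubiquitinase gene Usp2, from 2.95 ± 0.248 to 3.84 ± 0.211 FPKM in WT and 2.90 ± 0.237 to 3.995 ± 0.407 in DKO (0.32, limma adjusted p = 0.00884). Of 10 tested partners of PER and CRY complexes, 3 rose and none fell, among them the ubiquitin ligase scaffold gene Cul4a (0.19, limma adjusted p = 0.0326) and the corepressor gene Sin3a (0.15, adjusted p = 0.0458). Of 11 inducible genes that share stimuli with Per1, 4 rose and none fell, all of them targets of the glucocorticoid receptor: Tsc22d3 (0.81), Sgk1 (0.66), Fkbp5 (0.40) and Klf9 (0.25). The same 4 were called in WT alone (Tsc22d3 1.06, Sgk1 1.00, Fkbp5 0.59 and Klf9 0.42) and 0 of 11 in DKO, while the interaction called none of the 11. Over all genes, 1.51% were called higher at night in WT and 0.181% in DKO. The median night difference of the 11 was 0.15 in WT and 0.33 in DKO. For the 4 called in WT the rise of the means was smaller in DKO. Mean FPKM of Tsc22d3 went from 9.95 to 21.7 in WT and 14.1 to 21.0 in DKO. Sgk1 went from 13.4 to 28.0 and 19.8 to 25.0. Fkbp5 went from 7.10 to 11.2 and 9.96 to 11.7, and Klf9 from 25.4 to 34.3 and 30.4 to 32.1. These 4 were picked by their WT call, and none passed the interaction, so a genotype difference in the rise was not shown. Fkbp5 was also higher in DKO by day (0.44, limma adjusted p = 0.0368). The median differences of the 5 lists, in the order given, were 0.00, 0.18, 0.06, 0.10 and 0.25, beside 0.05 over all genes.

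**Figure D5:**
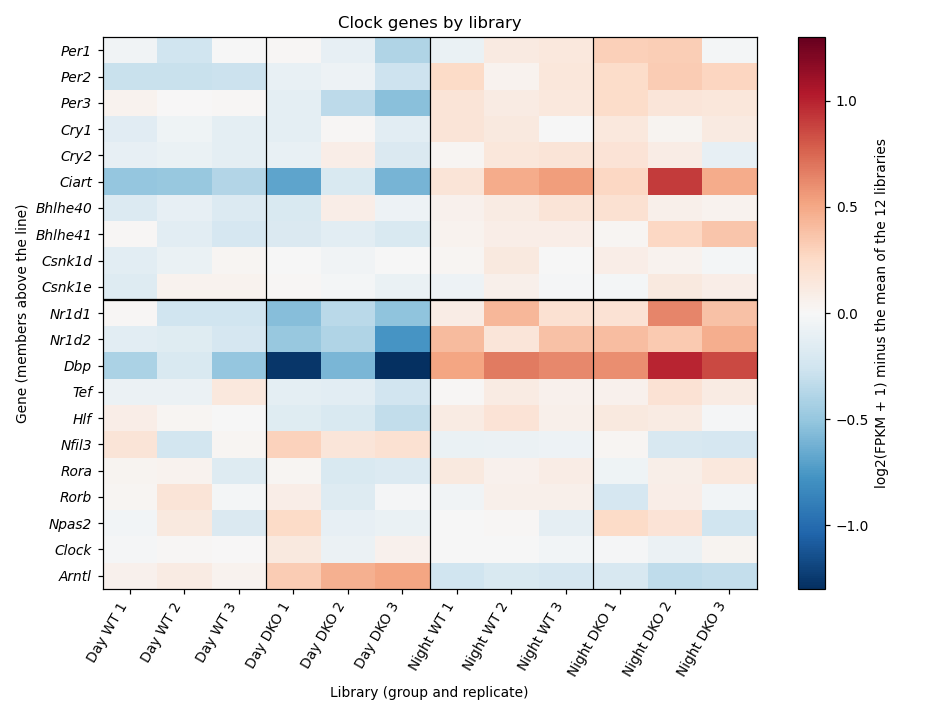
Level of 21 clock genes in the 12 libraries, as log2(FPKM + 1) minus the mean of each gene over the libraries (red higher, blue lower); members are above the horizontal line. Ciart and Dbp change most between day and night, Arntl is highest in the 3 Day DKO libraries, and Csnk1d and Csnk1e are nearly flat.

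The genes most like each member that rose averaged over genotypes were taken from 10839 genes of sufficient level by Pearson's r over the 12 libraries. These r are descriptions with no p, since they are the highest of many and the libraries fall into day and night groups. For Ciart they were Colgalt1 (r = 0.942, Spearman's rho = 0.874), Coq10b (0.941, 0.930) and the clock output gene Dbp (0.930, 0.902). For Bhlhe41 the most alike was the clock repressor gene Nr1d1 (r = 0.908, rho = 0.895), then Suv39h1 (0.887, 0.909) and Man2b1 (0.873, 0.790). For Per2 they were Xdh (0.954, 0.909), Sun1 (0.951, 0.895) and Stx3 (0.947, 0.944), and Sun1 also stood second for Cry1 (0.943, 0.944), between Pus7 (0.958, 0.923) and Gins4 (0.942, 0.923). For Per3 they were Smek2 (0.944, 0.937), Fahd2a (0.937, 0.958) and Rps6ka2 (0.930, 0.755), and for Bhlhe40 Lgalsl (0.949, 0.909), Psmb3 (0.934, 0.888) and Eif3g (0.925, 0.776).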

How the data were processed

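Hippocampal RNA of 12 mouse libraries was sequenced. Per the labels' protocols, the authors depleted ribosomal RNA and built stranded libraries. GRCm38.p6 is the build in the submitters' processing notes, and the aligner, quantifier and annotation release are not stated. Each library has 1 table that the authors deposited, read here as FPKM from the size of the values because no header names a unit. Library sums were 151059 to 175692 FPKM. Without counts, depth is unknown and no counting interval is given.

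Values were transformed to log2(FPKM + 1). Genes reaching 0.5 FPKM in 3 or more libraries (12689) entered limma (version 3.58.1, R 4.3.3), which estimated 4 group means from the 12 libraries with trended empirical Bayes variances. P-values were 2-sided and Benjamini-Hochberg adjusted over all genes within a comparison, and genes were called under 0.05. Every adjusted p printed is from limma. Fold values are ratios of mean FPKM. The fit was tested on simulated data.

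Gene IDs of 21727 of 21878 genes matched RefSeq's GRCm38.p6 annotation, the source of coordinates and promoters; 27 symbols that had become dates were restored. The members and gene lists were chosen with earlier results of these data known. Named genes were all members, the called genes of the lists, Psen2 as a check of the labels, and the 3 genes of highest Pearson's r to each member called in the averaged time comparison. Some genes that this rule names are not reported here. Replicate numbers are not stated to pair libraries, and the main fit did not pair them. Same-numbered libraries of different groups correlated in their deviations at -0.12 to 0.25, and differently numbered ones at -0.20 to 0.22. With 3 libraries in a group these ranges cannot exclude a pairing.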

Additional observations from a re-analysis of the deposited data

How the results depend on the processing

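The member counts by genotype stayed at 0 at night and in the interaction in all settings run, and at 0 to 1 by day and averaged (Per3, without Day DKO replicate 1). The WT time count of 2 was 1 without a filter on low values, 1 with median-of-ratios scaling, 1 with quantile normalization, 1 when only the 2 WT groups were fitted, and 0 to 3 without single libraries (0 without Day WT replicate 1 or any Night WT library). The DKO time count of 3 was 0 without a filter, 1 with the choroid plexus covariate, 0 when only the 2 DKO groups were fitted, and 0 to 3 without single libraries (0 without Day DKO replicate 3 or Night DKO replicate 3). The cause was not tested, except that dropping the filter adds tests and the smaller fits hold fewer libraries. The averaged time count was 4 to 7 in all settings. With the replicate block the counts were 2 in WT, 3 in DKO, 6 averaged and 0 in the other comparisons, so it changed no count of members.

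Over all genes the WT time count of 212 ranged from 1 (without Day WT replicate 1 or any Night WT library) to 418 (quality weights), the DKO time count of 38 from 15 to 65, the averaged time count of 770 from 243 to 894, and the genotype counts of 150, 3 and 238 from 4 to 205, 2 to 38 and 24 to 339. Directions of the members held in all settings for the DKO and averaged time comparisons. Csnk1e in WT changed from 0.02 to -0.056 with median-of-ratios scaling, -0.061 with quantile normalization and -0.054 to 0.054 without single libraries. The Per2 interaction of -0.0048 became 0.036, 0.0049 and 0.034 with median-of-ratios scaling, quantile normalization and the choroid plexus covariate, and -0.066 to 0.045 without single libraries. By genotype, 6 of 10 members changed sign in some setting by day, 5 at night and 6 averaged.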
